A study of Equus caballus with 19 samples.

Results

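Amino acid transporters are described here in cultured equine tenocytes, the collagen-producing cells of tendon, given the inflammatory cytokine IL-1β. The genes were taken by name: every row of the count tables whose gene name starts with SLC1A, SLC3A, SLC6A, SLC7A, SLC36A, SLC38A or SLC43A followed by a number. This rule gave 58 of 29196 gene names in each table, with 6 SLC1, 2 SLC3, 18 SLC6, 14 SLC7, 4 SLC36, 11 SLC38 and 3 SLC43 names. Of these, 57 are carriers or the heavy chains of carriers (SLC3A1 and SLC3A2). SLC7A6OS, a gene that overlaps SLC7A6 in RefSeq, meets the rule by its name although its protein is not a transporter. The tenocytes came from the superficial digital flexor tendon of wild-type adult Thoroughbred horses, were passaged in medium with added L-glutamine and fetal bovine serum, and were seeded in gels of bovine type 1 collagen. In the first batch 5 tenocyte lines (lines 1 to 5) were left unstimulated (control) or given 1 nM IL-1β. In the second batch 3 further lines (lines 6 to 8) were left as control, given 1 nM IL-1β, or given 1 nM IL-1β together with 100 ng/ml IL1Ra, the protein that blocks the IL-1 receptor. All gels were harvested at day 14, giving 19 RNA sequencing libraries, 1 per line and condition. A line is a primary culture from a single donor, so the lines are the replicates, and an age for each line was not given in the sources used here.

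Amino acids cross the plasma membrane on carriers that each accept a group of substrates, and many carriers exchange 1 amino acid for another. The SLC7 light chains work only when bound to a heavy chain of the SLC3 family, which brings them to the membrane, whereas the cationic carriers of the SLC7 family work alone. The SLC1 and SLC38 families and most SLC6 carriers are driven by the sodium gradient, and some SLC36 carriers, such as SLC36A1, by protons, often at lysosomes. When amino acids run short, the kinase GCN2 raises the transcription factor ATF4, and ATF4 is known to raise many carriers as well as the enzymes that make serine, asparagine and proline. Collagen holds large amounts of glycine and proline, so tendon cells that build matrix need a supply of both.

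The values were gene counts that the authors had divided by DESeq2 size factors (normalised counts), and they summed to 43393903 to 49197980 for libraries of the first batch, against 24964149 to 34602014 for the second. These values were not whole reads, so limma was fitted to log2(normalised count + 1) across all genes of a batch, and DE genes are those with a log2-fold change of 1 or more in either direction whose adjusted p lay under 0.05. In bulk RNA fewer cells of a type and less RNA per cell cannot be told apart. The tenocyte genes COL1A1, COL1A2, DCN, LUM, SCX and MKX were detected in all 19 libraries, while tenomodulin (TNMD) was at 0 or near it throughout. Summed over the 8 tenocyte markers in the tables, the control libraries of the first batch were at 1046673 to 1815114 and those with IL-1β at 507087 to 936063. COL1A1 and COL1A2 made up most of that sum, and not all markers moved with it. DCN was at 44076 to 93119.6 in controls and 67408 to 132486 with IL-1β, and LUM was higher with IL-1β without overlap, at 44097 to 72936 and 82340.1 to 149011. SCX and MKX were lower with IL-1β without overlap. SCX was at 822 to 2110.1 in controls and 9.69 to 205 with IL-1β, and MKX at 792 to 4654 and 33.6 to 459. THBS4 was low, at 6.97 to 191 in controls and 0 to 14.1 with IL-1β. Of the leukocyte markers, PTPRC, CSF1R, CD3E and CD79A reached at most 6.46. CD14 was at 1947 in the control of line 5 and 2811 with IL-1β. In control, IL-1β and IL-1β + IL1Ra it was at 1195, 1158 and 1482 in line 6 and at 0, 1262 and 645 in line 7. In the other lines CD14 was at most 71.4. ITGAM reached at most 55.3, in line 5 with IL-1β. Endothelial markers reached at most 73.2, and of the epithelial markers EPCAM reached 1.21 while CDH1 was at 1413 to 3904 in controls and 20.5 to 544 with IL-1β in the first batch. The second batch held a difference between lines that touches several results: SCX, the tendon transcription factor, was at 4720.0, 266 and 105 in the controls of lines 6, 7 and 8, and MKX, another, at 4059, 151 and 11.5. Line 6 was therefore high for both genes, and the controls of lines 7 and 8 fell below all controls of the first batch (822 to 2110.1 for SCX and 792 to 4654 for MKX, in a table normalised separately). Calls in the second batch are therefore given with and without line 6.

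In the first batch IL-1β moved 14 of the 37 genes of the set that could be tested (36 carriers or heavy chains, and SLC7A6OS): 6 rose and 8 fell. The genes that rose were SLC7A2, SLC6A12, SLC1A2, SLC7A8, SLC6A2 and SLC7A11, and those that fell were SLC7A3, SLC38A1, SLC1A4, SLC38A5, SLC1A5, SLC6A9, SLC7A1 and SLC43A1. Over all 14719 genes tested 4.91% were DE up and 7.9% DE down. All 14 moved the same way in 5 of 5 lines, and for 12 of them every library with IL-1β lay outside the range of the controls. The 14 were picked by their calls on these same libraries, and the share of all genes with such agreement was not counted. These counts therefore describe the 14 and are not support for the calls. The same 14 were called with the tenocyte line as a block, where 6% of all genes were DE up and 10.2% DE down. The median log2-fold change over the 37 was −0.02, against −0.003 over all genes, with 18 of the 37 above 0. An unadjusted p under 0.05 was reached by 25 of the 37 and by 5814 of all genes. The 23 that were not DE had log2-fold changes of −0.88 to 0.81, and 13 of them were under 0.5 in size.

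**Figure D1:**
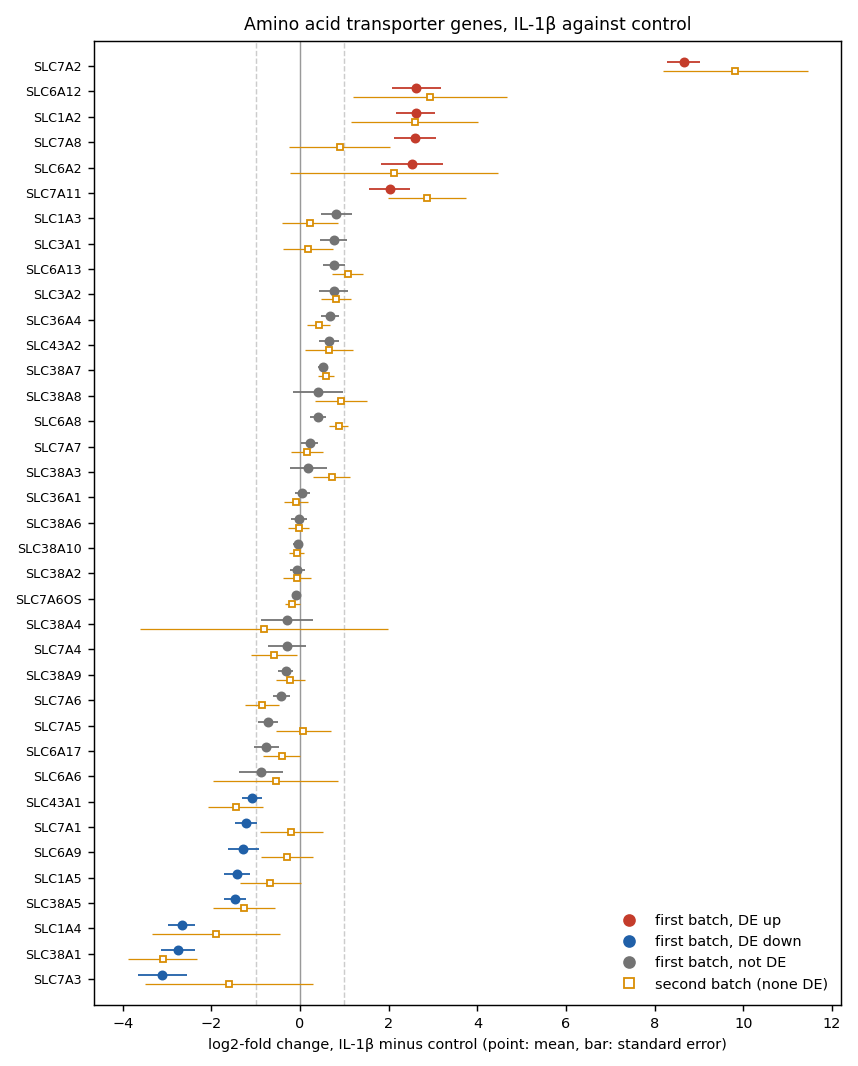
The horizontal axis is the log2-fold change of IL-1β minus control and each row is a gene of the set tested in both batches. Circles give the first batch (5 lines; red DE up, blue DE down, grey not DE), open squares the second (3 lines), and bars the standard error. SLC7A2 stands far to the right in both batches (8.66 and 9.82), and the bars of the second batch are wider.

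The heavy chains were present in every library. SLC3A2 (CD98 heavy chain, partner of most light chains) had normalised counts of 7947, 5966, 6435, 8846 and 11721 in the controls of lines 1 to 5 and 29048, 11790.5, 13887, 7443 and 12313 with IL-1β. It was higher with IL-1β in 4 of 5 lines and lower in line 4, and the groups overlapped (log2-fold change 0.76 ± 0.32 (SE), adjusted p = 0.103, not DE). The 95% interval of its log2-fold change was 0.05 to 1.46. Leaving out line 4 in the fit with the block, a setting added after the data were seen, made it DE up (1.008, adjusted p = 0.0399). SLC3A2 was at 5031, 3373 and 3643 in the controls of lines 6, 7 and 8 (second batch), 4097, 10284 and 7883 with IL-1β and 4287, 5807 and 5452 with IL-1β + IL1Ra. With IL-1β it was higher in lines 7 and 8 and slightly lower in line 6. Without line 6 the log2-fold change of the second batch was 1.361 (adjusted p = 0.0474), and with line 6 it was 0.81 (adjusted p = 0.42). SLC3A1, the heavy chain of the renal cystine carrier, was low at 19.5 to 51.8 in controls and 51.7 to 85.4 with IL-1β (log2-fold change 0.76 ± 0.30 (SE), adjusted p = 0.0866). Its light chain SLC7A9 was listed at 0 in all 19 libraries.

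Among the light chains, SLC7A11 and SLC7A8 rose with IL-1β and SLC7A5 did not pass the fold threshold. SLC7A11 (xCT, which takes in cystine in exchange for glutamate and so feeds glutathione synthesis) was at 1619, 889.7, 1893, 2194 and 2143 in the controls of lines 1 to 5 and at 21119.9, 4619, 9011, 3190.3 and 5112 with IL-1β. All 5 libraries with IL-1β lay above all controls (log2-fold change 2.02 ± 0.47 (SE), adjusted p = 0.00927), and line 1 rose most, by 3.70 on the log2 scale, whereas line 4 rose by 0.54. SLC7A11 was at 1611, 239 and 144 in the controls of lines 6, 7 and 8 (second batch), 1849, 1981 and 5842 with IL-1β and 1137, 2685 and 2245 with IL-1β + IL1Ra. The controls of lines 7 and 8 were low and their libraries with IL-1β high, while line 6 barely differed. SLC7A8 (LAT2, an exchanger of neutral amino acids) went from 43.9, 65.5, 117, 56.5 and 100.5 to 245, 296, 1433, 463 and 331 in lines 1 to 5, without overlap between the groups (log2-fold change 2.59 ± 0.47 (SE), adjusted p = 0.00292). Line 3 was far above the other libraries with IL-1β. SLC7A8 was at 64, 37 and 33.4 in the controls of lines 6, 7 and 8 (second batch), 322, 94.4 and 16.6 with IL-1β and 84, 40.9 and 7.79 with IL-1β + IL1Ra. Here lines 6 and 7 were higher with IL-1β and line 8 lower.

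SLC7A5 (LAT1, which brings in leucine and other large neutral amino acids) had normalised counts of 9151, 9753, 7586, 12222 and 11780.3 in the controls of lines 1 to 5 and 8951, 7662, 3939.9, 4608 and 6209 with IL-1β. It was lower in 5 of 5 lines, least in line 1, and the groups overlapped. Its adjusted p of 0.0357 passed the threshold while its log2-fold change of −0.73 ± 0.23 (SE) did not. SLC7A5 was at 6966, 3019.7 and 1460.3 in the controls of lines 6, 7 and 8 (second batch), 1588, 5878 and 3830.1 with IL-1β and 3935, 2959.9 and 2376 with IL-1β + IL1Ra. It was lower with IL-1β in line 6 and higher in lines 7 and 8 (log2-fold change 0.07 ± 0.62 (SE), adjusted p = 0.984). SLC7A6 and SLC7A7, which exchange cationic for neutral amino acids, had log2-fold changes of −0.42 and 0.21 in the first batch and were not DE. SLC7A6OS stayed within 873 to 1161 over the first batch (−0.09). The library kit marked strand, but whether counting kept SLC7A6 and SLC7A6OS apart where they overlap was not given in the sources used here. SLC7A10 was tested only in the second batch, at 11.1, 9.52 and 4.34 in the controls and 20.6, 19.7 and 16.9 with IL-1β (log2-fold change 1.19 ± 0.53 (SE), adjusted p = 0.447).

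The cationic carriers of the SLC7 family moved in opposite directions. SLC7A2 (CAT-2, the inducible carrier of arginine, lysine and ornithine) was low in all controls and gave the largest log2-fold change of the 37 genes tested. Its normalised counts were 81.9, 156, 42.2, 174 and 91.3 in the controls of lines 1 to 5. With IL-1β they were 24774, 36747, 60337, 51109.5 and 34566. No library with IL-1β came near the controls (log2-fold change 8.66 ± 0.38 (SE), adjusted p = 7.75e-07). SLC7A2 was at 217, 5.7 and 1.76 in the controls of lines 6, 7 and 8 (second batch), 67866, 6725 and 6546 with IL-1β and 7374, 4687 and 1417 with IL-1β + IL1Ra. All 3 lines were higher with IL-1β and no library with IL-1β or with IL-1β + IL1Ra overlapped the controls, although the levels reached differed between line 6 and the others. Without a block the second batch gave 9.82 ± 1.63 (SE) with an adjusted p of 0.057, just outside the threshold. With the tenocyte line as a block the adjusted p was 0.00294, and without line 6 (no block) it was 0.00361.

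SLC7A1 (CAT-1, the common carrier of arginine and lysine) fell. It was at 3589, 3717, 4695, 8153 and 6342 in the controls of lines 1 to 5 and at 3116, 2275, 1483, 2148 and 2123 with IL-1β, with no overlap (log2-fold change −1.22 ± 0.25 (SE), adjusted p = 0.0058). Line 1 fell by 0.20 on the log2 scale and line 4 by 1.92. SLC7A1 was at 4395, 959.9 and 807 in the controls of lines 6, 7 and 8 (second batch), 1248, 1072 and 1683 with IL-1β and 3135, 788 and 1085 with IL-1β + IL1Ra. Line 6 was lower and lines 7 and 8 higher with IL-1β. SLC7A3 (CAT-3, a cationic carrier best known from the nervous system) was at 196, 132, 356, 725 and 477 in the controls of lines 1 to 5 and at 49.9, 67.1, 11.7, 41.9 and 35.3 with IL-1β (log2-fold change −3.11 ± 0.55 (SE), adjusted p = 0.00245). The groups did not overlap. SLC7A3 was at 711, 7.69 and 7.65 in the controls of lines 6, 7 and 8 (second batch), 12.1, 7.69 and 16.1 with IL-1β and 223, 3.79 and 16.3 with IL-1β + IL1Ra. Only line 6 had a control level like those of the first batch, and there it was lower with IL-1β, whereas the controls of lines 7 and 8 were already under 10. SLC7A4, a related protein, was at 79.7 to 239 in controls and 36 to 156 with IL-1β (−0.30, not DE).

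**Figure D2:**
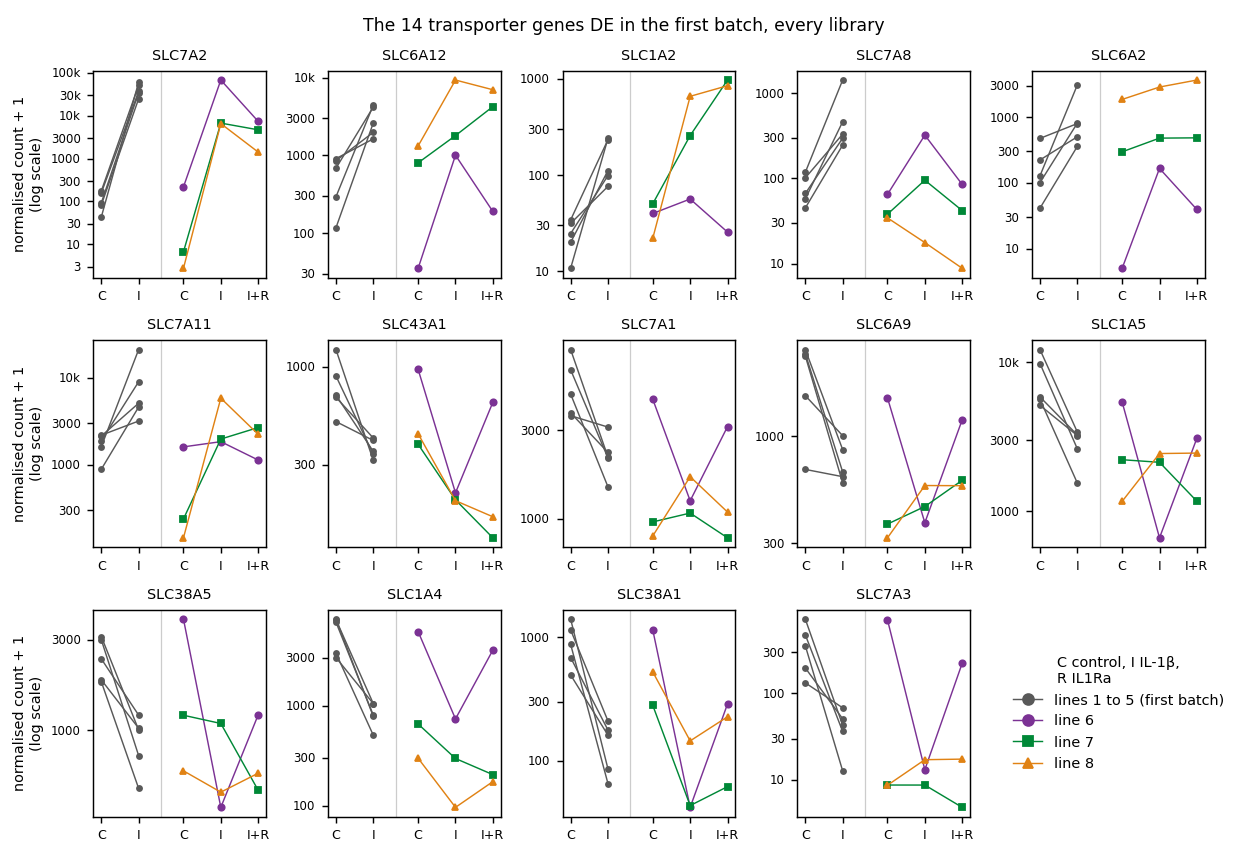
Each panel is 1 of the 14 genes DE in the first batch, with the normalised count + 1 on a log axis. Points joined by a line are libraries of the same tenocyte line; C is control, I is IL-1β and I+R is IL-1β + IL1Ra, with the first batch (grey, lines 1 to 5) left of the divider and the second (line 6 purple, line 7 green, line 8 orange) right of it. In the genes that fell, line 6 goes down with IL-1β and up again with IL1Ra, while lines 7 and 8 start low for SLC7A3, SLC1A4 and SLC7A1.

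In the SLC43 family, carriers of large neutral amino acids, SLC43A1 (LAT3) fell. Its normalised counts were 508, 686, 704, 1234 and 891 in the controls of lines 1 to 5 and 403, 415, 352, 315 and 339 with IL-1β. The groups did not overlap, although line 1 changed little (log2-fold change −1.08 ± 0.22 (SE), adjusted p = 0.00471). Without line 4 the log2-fold change was −0.86, under the fold threshold, with an adjusted p of 0.0146. SLC43A1 was at 967, 384 and 437 in the controls of lines 6, 7 and 8 (second batch), 211, 193 and 192 with IL-1β and 645, 121 and 157 with IL-1β + IL1Ra. All 3 lines were lower with IL-1β and the groups did not overlap, but the gene was not DE there (log2-fold change −1.45 ± 0.62 (SE), adjusted p = 0.426). SLC43A2 (LAT4) was at 7137 to 17193 in controls and 12212 to 21579 with IL-1β, higher in 5 of 5 lines and not DE (log2-fold change 0.65 ± 0.23 (SE), adjusted p = 0.0598). SLC43A3, a carrier of purine bases rather than of amino acids, was too low for the filter. It was at 1.74, 10.5, 0, 0 and 2.19 in the controls and 171, 96.6, 6.31, 7.05 and 13.6 with IL-1β, so lines 1 and 2 account for the higher values. With no filter on low values it was DE up (log2-fold change 3.43, adjusted p = 0.0376), where 3.93% of all genes were DE up. In fits without a line the filter asked for 10 or more in fewer libraries, as many as each condition had left. Under this lower limit SLC43A3 was fitted and DE up without line 3 (3.57, adjusted p = 0.0495), where 4.58% of all genes were. With the block as well it was DE up without line 3 (adjusted p = 0.0118) or line 4 (adjusted p = 0.0143). It met the limit mostly through libraries with IL-1β, where it was high, so these calls are not support for a rise.

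In the SLC1 family SLC1A4 and SLC1A5 carry neutral amino acids, and both fell. SLC1A4 (ASCT1, for alanine, serine and cysteine) was at 3351, 3027, 7249, 7339 and 6844 in the controls of lines 1 to 5 and at 505, 1047, 1047, 781 and 802 with IL-1β, a gap in which no library fell (log2-fold change −2.67 ± 0.31 (SE), adjusted p = 0.000244). SLC1A4 was at 5507, 655 and 297 in the controls of lines 6, 7 and 8 (second batch), 737, 296 and 95.3 with IL-1β and 3592, 204 and 173 with IL-1β + IL1Ra. All 3 lines were lower with IL-1β, from control levels that differed widely between line 6 and line 8. With the tenocyte line as a block the adjusted p in the second batch was 0.0575, against 0.728 without it. SLC1A5 (ASCT2, a main route for glutamine) was at 5857, 5139.9, 5641, 9822 and 12183 in the controls of lines 1 to 5 and at 3248, 3221, 1545, 2624 and 3403 with IL-1β, without overlap (log2-fold change −1.43 ± 0.29 (SE), adjusted p = 0.00501). SLC1A5 was at 5405, 2217 and 1164 in the controls of lines 6, 7 and 8 (second batch), 662, 2129.8 and 2439 with IL-1β and 3086, 1166 and 2456 with IL-1β + IL1Ra. Line 6 was lower with IL-1β, line 7 hardly differed and line 8 was higher.

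Of the glutamate carriers in the SLC1 family SLC1A2 rose and SLC1A3 was not DE. SLC1A2 (EAAT2, the main glutamate carrier of astrocytes) was low and rose, from 33.1, 23.6, 19, 9.72 and 30.4 in lines 1 to 5 to 233, 97.9, 110.5, 240.1 and 75.3 with IL-1β. The groups did not overlap (log2-fold change 2.61 ± 0.43 (SE), adjusted p = 0.00187). SLC1A2 was at 38.9, 49.4 and 21.1 in the controls of lines 6, 7 and 8 (second batch), 55.3, 257 and 659 with IL-1β and 24.5, 973 and 849.6 with IL-1β + IL1Ra. The difference was large in lines 7 and 8, and small in line 6, where the level with IL1Ra was below the control. Without line 6 the log2-fold change was 3.63 (adjusted p = 0.0384), and with it 2.58 (adjusted p = 0.557). SLC1A3 (EAAT1, another glutamate carrier) was at 1374 to 6919 in controls and 5316 to 7460.1 with IL-1β, higher in 5 of 5 lines and not DE (log2-fold change 0.81 ± 0.35 (SE), adjusted p = 0.112). SLC1A1 and SLC1A6 were not tested, with at most 1.99 and 5.08 in any library. The neural and glial markers GFAP and RBFOX3 reached at most 5.28, but SNAP25, also on that list, was at 88.4 to 608 in controls and 1651 to 2396 with IL-1β in the first batch. The summed level of the 4 neural and glial markers was 119 to 620 in controls and 1663 to 2409 with IL-1β there, and its part in the result was not tested.

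Of the 10 SLC38 carriers tested, which move glutamine, alanine and other small neutral amino acids, SLC38A1 and SLC38A5 fell and the other 8 were not DE. SLC38A1 (SNAT1, glutamine uptake) was at 493, 682, 1142, 1397 and 873 in the controls of lines 1 to 5 and at 159.6, 175, 208, 84.5 and 64.1 with IL-1β, and no control was as low as any library with IL-1β (log2-fold change −2.76 ± 0.38 (SE), adjusted p = 0.000674). SLC38A1 was at 1137, 278 and 520.5 in the controls of lines 6, 7 and 8 (second batch), 40.8, 42.2 and 143 with IL-1β and 286, 60.6 and 225 with IL-1β + IL1Ra. All 3 lines were lower with IL-1β and the groups did not overlap (log2-fold change −3.10 ± 0.77 (SE), adjusted p = 0.167). With the tenocyte line as a block the second batch gave an adjusted p of 0.0226, and SLC38A1 was DE down. SLC38A5 (SNAT5, which carries glutamine, serine and glycine) was at 1843, 2374, 1802, 2991 and 3109.8 in the controls of lines 1 to 5 and at 1027, 1203, 496, 737 and 1006 with IL-1β, without overlap (log2-fold change −1.47 ± 0.25 (SE), adjusted p = 0.00224). SLC38A5 was at 3837, 1200.5 and 613 in the controls of lines 6, 7 and 8 (second batch), 394, 1087 and 474 with IL-1β and 1206, 485 and 596 with IL-1β + IL1Ra. All 3 lines were lower with IL-1β, line 7 by little.

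SLC38A2 (SNAT2), a carrier known to rise when cells lack amino acids, lies next to SLC38A1 in the horse genome and was not DE. Its normalised counts in lines 1 to 5 were 23671, 19878, 15511, 21198 and 20538 in controls and 26454, 17518, 14064, 19729 and 19769 with IL-1β. The groups overlapped almost fully (log2-fold change −0.06 ± 0.17 (SE), adjusted p = 0.813), and the 95% interval of the log2-fold change was −0.44 to 0.31. Over lines 6 to 8 the log2-fold change was −0.07 ± 0.32 (SE). SLC38A4, the next gene on the other side of SLC38A2, differed more between lines than between conditions, at 113 to 676 in controls and 58.4 to 487 with IL-1β in the first batch. The controls of lines 6 to 8 were at 4.12, 666 and 1259.8, so that line 6 had almost none. At lysosomes, SLC38A7 (glutamine export) was higher in 5 of 5 lines without overlap of the groups, under the fold threshold (log2-fold change 0.51 ± 0.12 (SE), adjusted p = 0.0101). It was at 579.7, 783 and 842 in the controls of lines 6 to 8 and 1131, 1160.4 and 982 with IL-1β, also without overlap (log2-fold change 0.58 ± 0.18 (SE), adjusted p = 0.259). SLC38A9, the lysosomal arginine sensor of the growth kinase complex mTORC1, had a log2-fold change of −0.33 ± 0.17 (SE) in the first batch. SLC38A6 and SLC38A10 were within 0.05 of 0 on the log2 scale, and SLC38A3 and SLC38A8 were low, at no more than 30.2 in any library of the first batch.

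Both SLC36 carriers tested were expressed in all libraries and neither was DE. SLC36A1 (PAT1, proton-coupled export from lysosomes) was at 367, 434, 357, 451 and 485 in the controls of lines 1 to 5 and at 392, 399.7, 399, 390.0 and 614 with IL-1β (log2-fold change 0.05 ± 0.17 (SE), adjusted p = 0.843). Line 5 was the highest library of both groups. SLC36A4, a carrier of proline and tryptophan, was higher in 5 of 5 lines, at 1493 to 2664 in controls and 2574 to 4263 with IL-1β, with an adjusted p of 0.03 and a log2-fold change of 0.68 ± 0.20 (SE), under the fold threshold. SLC36A4 gave 0.42 ± 0.26 (SE) in the second batch.

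In the SLC6 family 7 of the 18 genes were tested, and SLC6A12 and SLC6A2 rose while SLC6A9 fell. SLC6A12 (BGT1, which carries betaine and GABA and takes part in the response to osmotic stress) was at 905, 850.4, 116, 292 and 682 in the controls of lines 1 to 5 and at 1628, 1976, 2612, 4436 and 4188 with IL-1β. The groups did not overlap (log2-fold change 2.62 ± 0.55 (SE), adjusted p = 0.00637), and lines 3 and 4, with the lowest controls, rose most. SLC6A12 was at 34.2, 800.1 and 1320.1 in the controls of lines 6, 7 and 8 (second batch), 1002, 1793 and 9297 with IL-1β and 189, 4231 and 6976 with IL-1β + IL1Ra. All 3 lines were higher with IL-1β, from control levels that were lowest in line 6, and the groups overlapped. With the tenocyte line as a block SLC6A12 was DE up in the second batch (adjusted p = 0.044), and without it the adjusted p was 0.596. SLC6A13 (GAT2), the neighbouring gene and a carrier of GABA and taurine, was higher in 5 of 5 lines, at 68.9 to 105 in controls and 109.8 to 221 with IL-1β (log2-fold change 0.76 ± 0.24 (SE), adjusted p = 0.0396, under the fold threshold).

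SLC6A2 (the noradrenaline carrier, which does not take amino acids) was at 473, 222, 40.2, 127 and 99.8 in the controls of lines 1 to 5 and at 796, 501, 357, 3082 and 809 with IL-1β. Each line rose, the control of line 1 lay within the range with IL-1β, and line 4 was far above the rest (log2-fold change 2.53 ± 0.69 (SE), adjusted p = 0.0211). Without line 4 the log2-fold change was 2.01 (adjusted p = 0.0737) and without line 5 it was 2.41 (adjusted p = 0.0918), past the fold threshold but not called. With the block the gene stayed DE up without either line (adjusted p = 0.024 and 0.0428). SLC6A2 was at 4.01, 295 and 1857 in the controls of lines 6, 7 and 8 (second batch), 165, 478 and 2865 with IL-1β and 38.3, 483 and 3660.5 with IL-1β + IL1Ra. The spread between lines was far larger than the change within lines 7 and 8.

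SLC6A9 (GlyT1, the glycine carrier) was at 1585, 689, 2481, 2543 and 2665 in the controls of lines 1 to 5 and at 1008, 634, 592, 669 and 862 with IL-1β. The groups overlapped, because line 2 had a low control and changed little (log2-fold change −1.28 ± 0.35 (SE), adjusted p = 0.0213). Without line 3, 4 or 5 the log2-fold change was −1.08, −1.12 and −1.19, still past the fold threshold, with an adjusted p of 0.0905, 0.092 and 0.0815. With the block the call was lost only without line 5 (adjusted p = 0.0544). SLC6A9 was at 1544, 371 and 318 in the controls of lines 6, 7 and 8 (second batch), 377, 453 and 574 with IL-1β and 1205, 609 and 573 with IL-1β + IL1Ra. Line 6 was lower with IL-1β and lines 7 and 8 higher. Of the other SLC6 genes tested, SLC6A8 (creatine) gave 0.40 ± 0.18 (SE), SLC6A17 (a neutral amino acid carrier of synaptic vesicles) −0.76 ± 0.28 (SE) and SLC6A6 (taurine) −0.88 ± 0.49 (SE) on the log2 scale. Each moved the same way in 5 of 5 lines, with adjusted p of 0.117, 0.068 and 0.207 without the block and 0.0141, 0.0175 and 0.00801 with it. SLC6A6 was DE down with the block and without line 4 (−1.01, adjusted p = 0.0109).

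In the second batch limma called 0 of the 38 genes of the set tested there (37 carriers or heavy chains, and SLC7A6OS) between IL-1β and control. Of all 16705 genes tested 0.269% were DE up and 0.0718% DE down. An unadjusted p under 0.05 was reached by 8 of the 38 and by 1907 of all genes. With the tenocyte line as a block SLC7A2 and SLC6A12 were DE up and SLC38A1 DE down, against 2.59% of all genes in each direction. Without line 6 and without a block SLC7A2, SLC7A11, SLC1A2 and SLC3A2 were DE up, 4 of 38, where 1.27% of all genes were DE up and 0.904% DE down. Without line 7 or without line 8 there were 0, and 0% of all genes were called. Leaving out line 6 in the fit with the block, a setting added after the data were seen, gave 6 up and 3 down, against 3.96% and 4.54% of all genes. Those up were SLC7A2, SLC7A11, SLC1A2, SLC6A12, SLC3A2 and SLC7A5, and those down SLC38A1, SLC38A4 and SLC7A6. SLC7A5 thus had an adjusted p under 0.05 in opposite directions in lines 1 to 5 (log2-fold change −0.73) and in lines 7 and 8 (1.18, adjusted p = 0.026 with the block). In line 6 its log2 ratio was −2.13, and with line 6 kept the second batch gave 0.07 (adjusted p = 0.984 from limma without the block). The difference between the batches was not tested, since no test crossed them.

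Set side by side within each line, the genes that rose in the first batch and those that fell are described here by counts, with no test. The 6 genes that rose were higher with IL-1β in 6, 6 and 5 of 6 cases in lines 6, 7 and 8, with median log2 ratios of 3.57, 1.84 and 3.86. The exception was SLC7A8 in line 8. The 8 genes that fell were lower in 8, 6 and 4 of 8 cases, with median log2 ratios of −2.96, −0.10 and 0.24. The median of line 6 was below that of each line of the first batch, whose medians for these 8 genes were −0.85, −0.84, −1.97, −1.99 and −1.73 in lines 1 to 5. The controls of lines 7 and 8 were lower than the control of line 6 for all 8 of these genes. The largest such gaps were in SLC7A3 and SLC1A4, whose values stand above. The part of the low starting level in the smaller change was not tested.

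**Figure D3:**
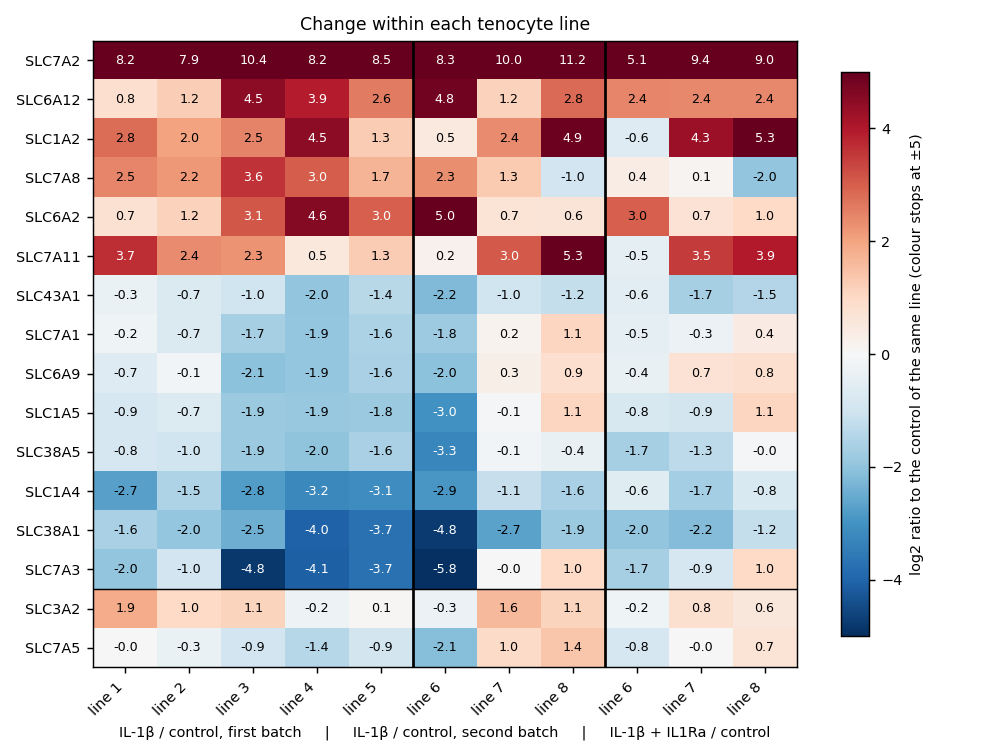
Each cell is the log2 ratio of normalised counts + 1 in a treated library to the control of the same tenocyte line, with 16 genes in rows and lines in columns; red is higher and blue lower than control. The left 5 columns are IL-1β in the first batch, the next 3 IL-1β in the second batch and the last 3 IL-1β + IL1Ra. The block of 8 genes that fell is blue in lines 1 to 6 and mixed in lines 7 and 8.

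The second batch asked whether IL1Ra keeps tenocytes near the control state in the presence of IL-1β. Between IL-1β + IL1Ra and IL-1β alone limma called 0 of the 38 in either direction, and 0 of all genes (0%), so at this size no such change passed the test. An unadjusted p under 0.05 was reached by 3 of the 38 and by 464 of all genes, and with the block by 6 and 1400, with 0 of the 38 DE and 0.00599% of all genes DE up. Between IL-1β + IL1Ra and control 0 of the 38 were DE without the block, where 0.012% of all genes were DE up and 0% DE down. In that limma fit 4 of the 38 and 948 of all genes (5.67%) had an unadjusted p under 0.05. With the block SLC7A2 was DE up there (log2-fold change 7.84, adjusted p = 0.0267), against 0.21% of all genes up and 0.0419% down. Without line 6 SLC7A2 (9.23, adjusted p = 0.00983) and SLC1A2 (4.77, adjusted p = 0.0456) were DE up in that comparison, where 0.335% of all genes were.

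Within lines, the transporters differed from line to line in how they moved when IL1Ra was added. With 1 library per line and condition, a difference between lines cannot be told from a difference between libraries. The library of line 7 with IL-1β + IL1Ra had the lowest COL1A1 (40715) and DCN (18227) of the 9 libraries of the second batch. Its part in the counts below was not tested. In line 6 the 6 genes that had risen in the first batch were lower with IL-1β + IL1Ra than with IL-1β in 6 of 6 cases (median log2 ratio −2.0001), and the 8 that had fallen were higher in 8 of 8 (1.95). SLC7A2 in line 6 went from 67866 to 7374, SLC1A4 from 737 to 3592 and SLC7A1 from 1248 to 3135. In line 7 the genes that had risen were lower with IL1Ra in 2 of 6 cases (median 0.23), and those that had fallen were higher in 2 of 8 (−0.60). In line 8 the counts were 4 of 6 (−0.71) and 5 of 8 (0.02). Of the 6 genes that had risen, 4, 2 and 3 were closer to control with IL1Ra than without it in lines 6, 7 and 8. For the 8 that had fallen these counts were 8, 1 and 5. In line 6 SLC1A2 and SLC7A11 went below control with IL1Ra (log2 ratios −0.64 and −0.50). The share of all genes that moved in these ways was not counted. SLC7A2 was lower with IL1Ra than with IL-1β alone in all 3 lines and above the control of its line in all 3 (log2-fold change −1.98 ± 1.63 (SE), adjusted p = 1 against IL-1β). SLC38A1 was higher with IL1Ra than with IL-1β in 3 of 3 lines and below control in 3 of 3 (log2-fold change 1.31 ± 0.77 (SE) against IL-1β). SLC38A7 was lower with IL1Ra than with IL-1β in 3 of 3 lines without overlap, by 0.45 on the log2 scale (unadjusted p = 0.038 from limma over all libraries, adjusted p = 1.00). SLC7A8, SLC7A7, SLC7A10 and SLC6A8 were also lower, and SLC38A4 and SLC7A4 higher, in 3 of 3 lines. Not all of these went back towards control. SLC7A7 (log2 ratios −0.45, −1.26 and −1.10 in lines 6, 7 and 8) ended below control in 3 of 3, in line 6 by little. SLC38A4 (1.66, 1.70 and 0.91) ended above control in 3 of 3, from a low level in line 6.

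Enzymes that make and use the same amino acids were read from 8 lists, by counts and medians only, beside the 4.91% of all genes that were DE up and the 7.9% DE down in the first batch. With lists of 5 to 22 genes tested, a count of 1 or 2 is given for the genes called and not as a result about the list. On the list of the amino acid response led by ATF4, 2 of 16 genes rose and 5 fell in the first batch, with a median log2-fold change of −0.57. ASNS, which makes asparagine, fell from 6443, 4137, 7801, 9656 and 10048 in lines 1 to 5 to 1835, 1945, 1195, 1651 and 2219 (log2-fold change −2.07, adjusted p = 0.000303), and CHAC1, which breaks down glutathione, fell by 2.40. The genes that rose there were the transcription factors CEBPB (1.54) and ATF3 (1.29), both also known as targets of inflammatory signalling. ATF4 itself was at 21632 to 32269 in controls and 19594 to 32529 with IL-1β. Of 10 genes of serine, glycine and one-carbon synthesis 6 fell and 0 rose, with a median of −1.16. PHGDH, the first enzyme of serine synthesis, was at 2775, 2285, 3373, 3527 and 3589 in controls and 207, 339, 92.6, 342 and 419 with IL-1β (−3.62, adjusted p = 0.000132), and the next enzyme, PSAT1, fell by 2.37. Neither gene's groups overlapped.

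Of 13 genes of glutamine, glutamate and proline metabolism tested, 1 rose and 2 fell. GLUL, which makes glutamine from glutamate, rose from 32444, 20919, 8982, 8871 and 8715 to 65419, 53904, 124589, 43577 and 46322 (2.18, adjusted p = 0.00418). The glutamine carriers SLC1A5, SLC38A1 and SLC38A5 moved the opposite way, but not all related carriers did. SLC38A2 was not DE (−0.06), and SLC38A7, which exports glutamine from lysosomes, was higher under the fold threshold (0.51). PYCR1, the last step of proline synthesis, went from 4998, 4213, 7449, 7146 and 7738 to 826, 1139, 572, 1385 and 1255 (−2.63, adjusted p = 0.000119), and GPT2, which pairs alanine with glutamate, fell by 2.43. Of 9 glutathione genes tested 2 rose and 0 fell: CTH (1.89), which makes cysteine, and GSR (1.20), which recycles glutathione. They moved the same way as the cystine carrier SLC7A11. Of 10 arginine and polyamine enzymes 2 rose and 0 fell. NOS2, which makes nitric oxide from arginine, was at 729, 3534, 103, 75.4 and 46.2 in controls and 5259.8, 17662, 49055, 3699 and 1073 with IL-1β, higher in 5 of 5 lines with overlapping groups (4.83, adjusted p = 0.0198), and SAT1, which breaks down polyamines, rose by 1.48. ARG2, the arginase found here, was not DE, and ARG1 was listed at 0 in every first-batch library. On the list of branched-chain and tryptophan breakdown BCAT1 rose (1.27) as the only call among 5 genes tested. Among 20 cytosolic aminoacyl-tRNA synthetases, which load amino acids for translation, CARS (−1.19) and SARS (−1.13) fell and 0 rose, with a median of −0.39. Of 22 genes of amino acid sensing by mTORC1 limma called 0, with 11 at an unadjusted p under 0.05, which 39.5% of all genes reached, and a median of 0.31.

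**Figure D4:**
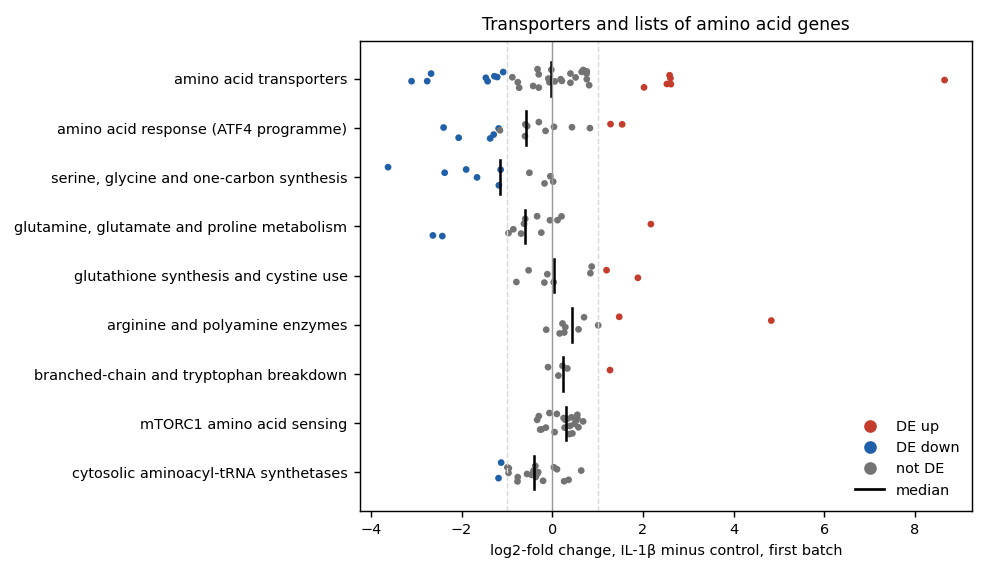
Each point is a gene tested in the first batch, placed by its log2-fold change of IL-1β minus control, for the transporter set (top row) and 8 lists of amino acid genes. Red is DE up, blue DE down, grey not DE, and the black bar is the median of the row; points are spread vertically at random within a row. The serine, glycine and one-carbon row has its median at −1.16 with 6 blue points and 0 red.

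The line pattern of the transporters that fell was also seen in these enzymes. In the second batch ASNS was at 7503, 1735 and 657 in the controls of lines 6, 7 and 8, 797, 1489.9 and 869 with IL-1β and 3409, 1016 and 1149 with IL-1β + IL1Ra. PSAT1 was at 10519, 1439.7 and 408 in controls, 644, 1246 and 964 with IL-1β and 5526, 669 and 976 with IL-1β + IL1Ra. PHGDH was at 2586, 606 and 373, 97.9, 369 and 79.2 and 717, 116 and 104 in the same order. In all 3 genes line 6 had the highest control, was lower with IL-1β and higher again with IL1Ra, whereas line 8 had the lowest control. With IL-1β line 8 was higher than its control in ASNS and PSAT1 and lower in PHGDH. Without the block limma called 0 genes of the 8 lists between IL-1β and control in the second batch, with 0 to 4 genes per list at an unadjusted p under 0.05. With the block CEBPB (1.48), EIF2AK3 (1.17), GGT5 (3.47), SAT1 (1.38) and BCAT1 (1.85) were DE up and 0 down, with at most 2 on any list and 2.59% of all genes called in each direction.

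**Figure D5:**
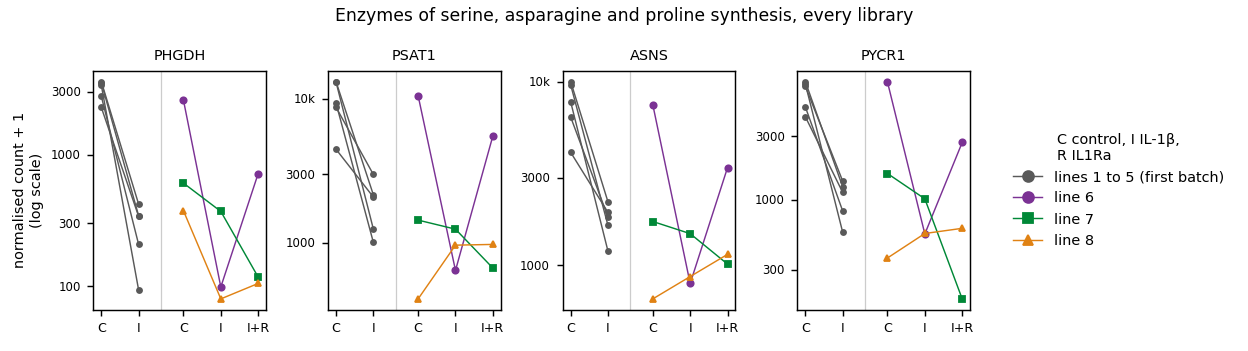
Normalised count + 1 on a log axis for PHGDH, PSAT1, ASNS and PYCR1 in every library, drawn as in the plot of the 14 transporters (C control, I IL-1β, I+R IL-1β + IL1Ra; grey lines 1 to 5, purple line 6, green line 7, orange line 8). Lines 1 to 6 fall with IL-1β in all 4 genes, and the controls of lines 7 and 8 lie below those of the other lines.

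Of the 58 names, 20 were tested in neither batch. Of these, 8 were listed at 0 in all 19 libraries, among them SLC36A2, SLC7A13, the kidney and gut carriers SLC6A18, SLC6A19, SLC6A20 and SLC7A9, and SLC6A11, a carrier of GABA. The other 12 were above 0 in some library without passing the filter. Of these 12 SLC43A3, whose values stand above, was the highest, and the next was SLC6A4, the serotonin carrier, at 11, 35.2, 4.5, 0.93 and 3.17 in the controls of lines 1 to 5 and 16.9, 7.25, 1.01, 0 and 1.88 with IL-1β, with no common direction. SLC1A1, SLC1A6, SLC36A3, SLC38A11, SLC6A3, SLC6A5, SLC6A7, SLC6A14, SLC6A15 and SLC7A14 reached at most 5.08 in any library. For genes at such levels a change could not have been detected at this depth.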

How the data were processed

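The series holds 19 RNA sequencing libraries of equine tenocytes in collagen gels, made with a stranded mRNA kit. Per the labels and the study's methods, the authors quantified reads with Salmon on the EquCab3.0 transcriptome, summed them to genes with tximport, and deposited for each batch a separate table of gene counts divided by DESeq2 (version 1.36) size factors, a signal that is no longer a whole count. Of low values (under 15), 50.7% to 70.5% per library lay within 0.05 of a whole multiple of a unit. That unit was searched for in each library as the value that gave the highest share. The remaining low values lay further from a whole multiple, and no count model was fitted. No test crossed the batches. Library sums ran from 43393903 to 49197980 for the first batch, against 24964149 to 34602014 for the second, where low genes are less precise. No column was left without a sample.

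Starting from the deposited values, genes at 10 or more in at least 5 libraries of the first batch, or 3 of the second, were fitted as log2(value + 1) with limma 3.58.1 in R 4.3.3 (eBayes with trend, no block), the 3 conditions of the second batch in a single fit. With a line left out, the filter asked for as many libraries as each condition then held. P-values were adjusted by Benjamini-Hochberg over all genes tested. The fit was tested on simulated data: for IL-1β against control, of 200 genes changed by 2 on the log2 scale among 14719 genes of the first batch it called 76% (84% with the line as a block), and among 16705 genes of the second 35% (51% with the block). The real first batch held more DE genes (722 up and 1163 down). The simulated spread between lines was taken from line means, which also hold residual spread. These percentages therefore describe the simulation and not the share detected in the data. Libraries of the same tenocyte line come from the same donor, which pairs them. Their deviations from the condition means correlated, over 5 pairs of the first batch, at 0.35 to 0.58 and, over 9 pairs of the second, at 0.54 to 0.79. For different lines the ranges were −0.36 to 0.29 over 20 pairs and −0.62 to 0.25 over 18 pairs. The fit with the line as a block is an alternative, beside other pseudocounts (0.5 and 5), filters, scalings, no trend, a fit on 2 conditions, and leaving out each line.

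The members, gene lists and alternatives were chosen with earlier results of these data known. Every member DE in any main fit or fit with the block is given in every library of the first batch and of the second, other members by log2-fold change, range or count, and from each list at most 2 DE genes that rose and 2 that fell are named for the first batch. ARG2, ATF4 and the DE list genes of the second batch were named after their values were seen. The 18 aminoacyl-tRNA synthetases listed under older symbols in the tables were matched by hand. All 58 names matched the RefSeq gene table, which is of a newer horse assembly and was used for names and neighbours only, so no coordinates are given. A member that the text counts but does not name is not reported here. Promoter and protein sequences were not used here, and a planned search of promoters for motifs was not run.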

Additional observations from a re-analysis of the deposited data

Results flagged for a closer look

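In groups of 5 libraries of the first batch, 5 of 74 gene and condition groups held a library whose gap to the nearest of the others, as a share of the whole range, exceeded 0.71, where chance would give about 3.7. With IL-1β, SLC36A1 was highest in line 5 (614 against 390.0 to 400 in the others, share 0.957), SLC6A2 in line 4 (3082 against 357 to 809, share 0.834) and SLC7A8 in line 3 (1433 against 245 to 463, share 0.817). SLC7A4 was lowest in line 1 with IL-1β (35.98 against 123 to 156, share 0.727). SLC7A6OS was highest in the control of line 3 (1161 against 959 to 1011, share 0.744). No line holds more than 1 of these libraries in the same condition. The groups of 3 in the second batch were not tested for such libraries.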

How the results depend on the processing

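In the first batch the 14 calls kept their direction under every alternative run for them, and in 258 of 266 gene and setting pairs they stayed past the threshold. All 14 had moved the same way in every line, so leaving out a line could not change their direction. Removing the fold threshold could not lose a call either. Both counts are therefore a description and not support for the calls. The 8 losses all came with a line left out. Without the block they were SLC43A1 without line 4, SLC6A2 without line 4 or 5, and SLC6A9 without line 3, 4 or 5. With the block they were SLC43A1 without line 4 and SLC6A9 without line 5. The counts ranged from 5 to 7 up and from 6 to 8 down when a line was left out, where 3.7% to 4.58% of all genes were DE up and 5.62% to 7.12% DE down. The 7 up came from SLC43A3, added without line 3, where the filter asked for fewer libraries. With the block as well the counts were 6 to 8 up and 7 or 8 down, against 5.26% to 6.04% and 9.2% to 10.2% of all genes. There SLC43A3 was added without line 3 or 4, and SLC3A2 was up and SLC6A6 down without line 4. The replicate block left 6 up and 8 down in the first batch, against 6% and 10.2% of all genes. For the second batch the share of all genes called is given in brackets. The count of genes DE up between IL-1β and control was 0, but 1 with a pseudocount of 5 (SLC7A2, 0.311%) and 2 with the replicate block (2.59%). It was 0 to 4 when a line was left out, with 4 without line 6 (1.27%). With the block as well it was 6 without line 6 (3.96%), 0 without line 7 (0%) and 1 without line 8 (0.15%). The count DE down was 0, but 1 with the block (2.59%) and 3 with the block and without line 6 (4.54%). Between IL-1β + IL1Ra and control the count up was 0, but 1 with the block (0.21%) and 0 to 2 when a line was left out, with 2 without line 6 (0.335%). With the block and without line 6 it was 4 up and 1 down, where 1.89% and 1.32% of all genes were called. The settings that join the block with a left-out line were chosen after seeing the data. Without the fold threshold, 9 rose and 9 fell in the first batch, where 13.1% of all genes rose and 14.6% fell. Dividing each library by its sum moved the median of all genes by −0.18 between IL-1β and control in the second batch and by 0.10 between IL1Ra and IL-1β, and less elsewhere.

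Genes not DE changed sign when a line was left out. In the first batch these were 4 of 37, with log2-fold changes of −0.018 to 0.12 for SLC36A1, −0.046 to 0.31 for SLC38A3, −0.14 to 0.068 for SLC38A6 and −0.55 to 0.048 for SLC7A4. In the second batch 13, 12 and 20 of 38 changed sign between IL-1β and control, IL-1β + IL1Ra and control, and IL-1β + IL1Ra and IL-1β. Ranges are given for 6, 7 and 12 of them, those DE in the first batch or whose change in the second batch the text describes, and not for the other 7, 5 and 8. Between IL-1β and control they were −0.39 to 0.15 for SLC38A2 (0.017 with median-centred libraries), −1.54 to 0.50 for SLC1A5, −0.87 to 0.57 for SLC6A9, −0.83 to 0.61 for SLC7A1, −2.88 to 0.49 for SLC7A3 and −0.59 to 1.18 for SLC7A5, whose value was also −0.11 with equal library sums. Between IL-1β + IL1Ra and control they were −0.17 to 0.14 for SLC38A2 (0.061 with median-centred libraries), −0.87 to 0.13 for SLC1A5, −0.029 to 0.26 for SLC38A7, −0.39 to 0.071 for SLC7A1, −1.26 to 0.073 for SLC7A3, −0.91 to 0.26 for SLC7A8 and −0.43 to 0.34 for SLC7A5 (0.013 with median-centred libraries). SLC7A10 had 0.00159 with median-centred libraries there. Between IL-1β + IL1Ra and IL-1β they were −0.13 to 0.22 for SLC38A2, −0.10 to 0.30 for SLC7A6, −0.39 to 1.14 for SLC1A2, −0.43 to 1.12 for SLC1A5, −0.34 to 0.28 for SLC36A4, −0.42 to 0.97 for SLC38A5, −0.48 to 0.66 for SLC43A1, −1.41 to 0.41 for SLC6A12, −1.03 to 0.18 for SLC6A2, −0.54 to 0.44 for SLC7A1, −0.42 to 2.06 for SLC7A3 and −0.84 to 0.31 for SLC7A5. With the block as well, the estimates without a line were the same, among them 0.041 for SLC38A6 in the first batch without line 4 and, in the second, −0.37 for SLC7A5 (IL-1β against control, without line 7), 0.022 for SLC38A2 (the same, without line 8), 0.019 for SLC38A2 (IL-1β + IL1Ra against control, without line 7), 0.075 for SLC1A5 (IL-1β + IL1Ra against control, without line 6) and 0.16 for SLC7A5 (IL-1β + IL1Ra against IL-1β, without line 8). Leaving out a line leaves fewer samples, and the cause of these changes was not tested further. The lower sums and the 3 lines of the second batch limit what could be detected there.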
